A study of Mus musculus with 3 samples.

Results

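Dazl, Ddx4 and Sycp3 are genes of the germ line that switch on as primordial germ cells, from which eggs and sperm descend, settle in the gonad. Each gene was represented by a window of mouse genome build mm9: chr17:50410001-50450000 for Dazl (40 kb), chr13:113380001-113450000 for Ddx4 (70 kb) and chr10:87910001-87950000 for Sycp3 (40 kb). Every called region of H3K4me3 or H3K27me3 that overlapped a window by at least 1 bp was taken. The rule that sets the windows names genes and positions and no threshold on a mark. The 3 windows held 7 regions, 4 of the 47928 regions of the H3K4me3 list and 3 of the 18731 regions of the H3K27me3 list. The cells were sorted as GFP-positive at E11.5 from pooled gonadal regions of embryos of an Oct4:GFP B6 line crossed to Swiss-Webster females. Chromatin of 2 aliquots, of 104000 and 97000 cells, was split equally, for precipitation with an antibody to either mark and for an input control. The series has 3 samples, 1 for each of these, and each sample stands for 2 replicates. The gate rests on the Oct4 reporter alone, all embryos were pooled, and their sex is not given in the sources used here.

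H3K4me3, trimethylation of lysine 4 on histone H3, is typical of active and of CpG-rich promoters. H3K27me3 is the mark laid down at silent genes by a Polycomb repressive complex, PRC2. A promoter with both is called bivalent. Dazl encodes an RNA-binding protein that controls translation in germ cells, Ddx4 encodes the mouse Vasa homologue, a DEAD-box RNA helicase, and Sycp3 encodes a structural protein of the synaptonemal complex that holds paired chromosomes together in meiosis. In somatic tissues promoters of this group are typically silenced by DNA methylation, which is erased in primordial germ cells around the time they colonise the gonad. The deposited lists hold positions of regions and no expression, methylation or read counts. No mm9 annotation was used here, so neither the windows nor the regions could be placed relative to the start sites of the 3 genes. The lists do not show whether the 3 genes were active, the depth behind a region is unknown, and no marker gene could be used to check the sorted cell type.

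The promoters are shown first because CpG-rich sequence is where both marks are usually found and where DNA methylation acts on this group. The 250 bases before the RefSeq start of each gene are given 5′ to 3′ on the gene's strand, with every CpG in capitals. They come from RefSeq on assembly GRCm38.p6, at chr17:50293621-50293870 (minus strand) for Dazl, chr13:112652311-112652560 (minus strand) for Ddx4 and chr10:88459337-88459586 (plus strand) for Sycp3. These positions are on another build than the mm9 regions and are not comparable with them.
Dazl: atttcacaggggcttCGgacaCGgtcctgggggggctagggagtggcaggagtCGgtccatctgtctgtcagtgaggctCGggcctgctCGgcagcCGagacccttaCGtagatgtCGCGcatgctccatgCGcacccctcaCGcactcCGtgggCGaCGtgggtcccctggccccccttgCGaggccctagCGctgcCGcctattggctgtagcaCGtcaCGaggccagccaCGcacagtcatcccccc
Ddx4: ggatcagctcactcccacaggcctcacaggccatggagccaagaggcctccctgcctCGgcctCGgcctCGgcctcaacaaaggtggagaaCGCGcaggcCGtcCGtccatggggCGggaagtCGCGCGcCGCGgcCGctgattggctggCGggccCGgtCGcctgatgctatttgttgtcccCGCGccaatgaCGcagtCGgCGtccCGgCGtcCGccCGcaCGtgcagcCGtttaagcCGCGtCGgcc
Sycp3: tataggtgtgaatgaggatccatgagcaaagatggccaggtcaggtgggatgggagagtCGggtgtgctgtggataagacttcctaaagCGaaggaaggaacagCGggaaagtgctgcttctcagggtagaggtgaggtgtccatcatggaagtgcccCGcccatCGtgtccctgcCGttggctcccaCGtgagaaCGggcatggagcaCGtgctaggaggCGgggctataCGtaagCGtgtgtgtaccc
The stretch of Dazl holds 20 CpGs, that of Ddx4 holds 31 and that of Sycp3 holds 12.

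The genes differed in their chromatin class: the Dazl window carried H3K4me3 alone, while the Ddx4 and Sycp3 windows carried both marks on overlapping sequence. In each window the marks occupied a single short stretch, apart from 1 isolated H3K4me3 region of 200 bp near Sycp3. H3K4me3 covered 2200 bp of the Dazl window, 1200 bp of the Ddx4 window and 1400 bp of the Sycp3 window. H3K27me3 covered 0, 1200 and 1000 bp in the same order. With 1 list per mark no value has an error between replicates and no test between the genes could be made. In pooled cells, an overlap of separately precipitated marks does not show both on the same chromatin, and a mark in few cells cannot be told apart from a weak mark in many.

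**Figure D1:**
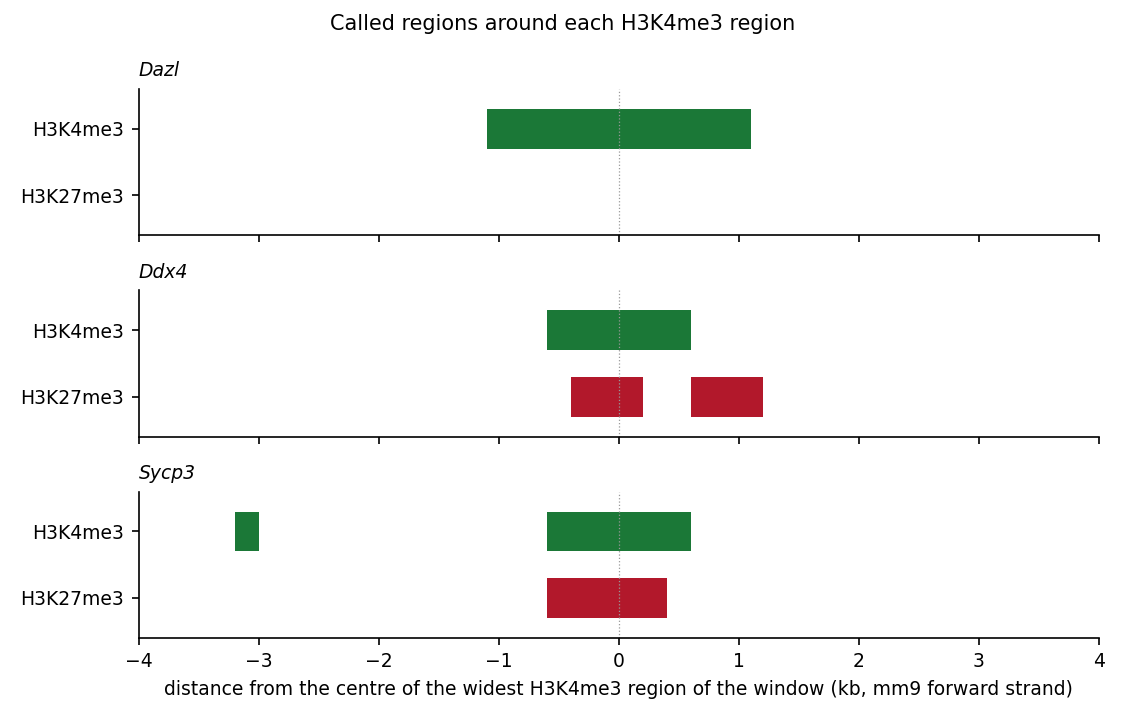
Regions of H3K4me3 (green) and H3K27me3 (red) by distance in kb from the centre of the widest H3K4me3 region of each window, on the mm9 forward strand. Dazl has 1 H3K4me3 region of 2200 bp and no H3K27me3, Ddx4 has an H3K27me3 region inside its H3K4me3 region and another starting at its end, and the H3K27me3 region of Sycp3 starts where its H3K4me3 region starts.

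Dazl was the gene with the widest H3K4me3 and no H3K27me3. Its only region lay at chr17:50431401-50433600 and was 2200 bp wide, or 11 of the 200-bp steps on which all regions end. Of all H3K4me3 regions 86.8% were narrower and 10.3% were wider, against a median of 800 bp (quartiles 200 and 1400 bp). The remaining 189 of the 200 steps of the window carried neither mark. Absence of H3K27me3 was the usual state at this width: of the 1384 H3K4me3 regions of exactly 2200 bp, 314 overlapped H3K27me3, a share of 22.7% (95% Wilson interval 20.6 to 25.0%). Over all H3K4me3 regions the share was 18.8%. Dazl was also distant from any H3K27me3. The nearest H3K27me3 regions ended 391 kb before it (chr17:50039401-50040200, 800 bp) and began 404 kb after it (chr17:50837601-50838000, 400 bp). Among 38920 H3K4me3 regions without H3K27me3, 89.9% had an H3K27me3 region closer than this, and the median gap was 73.2 kb (quartiles 24.4 and 185 kb).

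Ddx4 had 1 H3K4me3 region and H3K27me3 in 2 pieces. Its H3K4me3 region, chr13:113441801-113443000, was 1200 bp wide, with 64.4% of all H3K4me3 regions narrower and 30.1% wider. A first H3K27me3 region, chr13:113442001-113442600, lay wholly inside it, beginning 200 bp after its left end and ending 400 bp before its right end. It was 600 bp wide and covered 50.0% of the H3K4me3 region. When neighbouring regions under 1 kb apart were merged, this piece and the one described next became 1 region of 1600 bp that covered 83.3% of it. A second, also of 600 bp (chr13:113443001-113443600), began at the base after the H3K4me3 region ended, so the pieces were 400 bp apart and the second overlapped no H3K4me3. By 200-bp steps, 3 carried both marks, 3 H3K4me3 alone, 3 H3K27me3 alone and 341 of 350 neither. Another H3K4me3 region of 1200 bp, chr13:113450401-113451600, lay just outside the window, 400 bp past its edge and 7.4 kb from the region inside. The gene table of assembly GRCm38 gives Slc38a9 and Il31ra as the protein-coding neighbours of Ddx4. Which gene that outside region belongs to was not examined, because no mm9 annotation was used here.

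At Sycp3 both marks covered nearly the same sequence. The H3K4me3 region chr10:87922201-87923400 was 1200 bp wide, as at Ddx4, and the H3K27me3 region chr10:87922201-87923200 was 1000 bp wide. Both started at the same base, and H3K27me3 ended 200 bp before H3K4me3, covering 83.3% of it. By steps, 5 carried both marks, 2 H3K4me3 alone, 0 H3K27me3 alone and 193 of 200 neither. A further H3K4me3 region of 1 step (chr10:87919601-87919800) lay 2.4 kb to the left and overlapped no H3K27me3. Such single-step regions are the narrowest in the list, and 74.3% of H3K4me3 regions were wider. In the GRCm38 table Sycp3 overlaps another protein-coding gene, Chpt1, which encodes an enzyme of phosphatidylcholine synthesis, so marks in this window need not belong to Sycp3 alone.

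**Figure D2:**
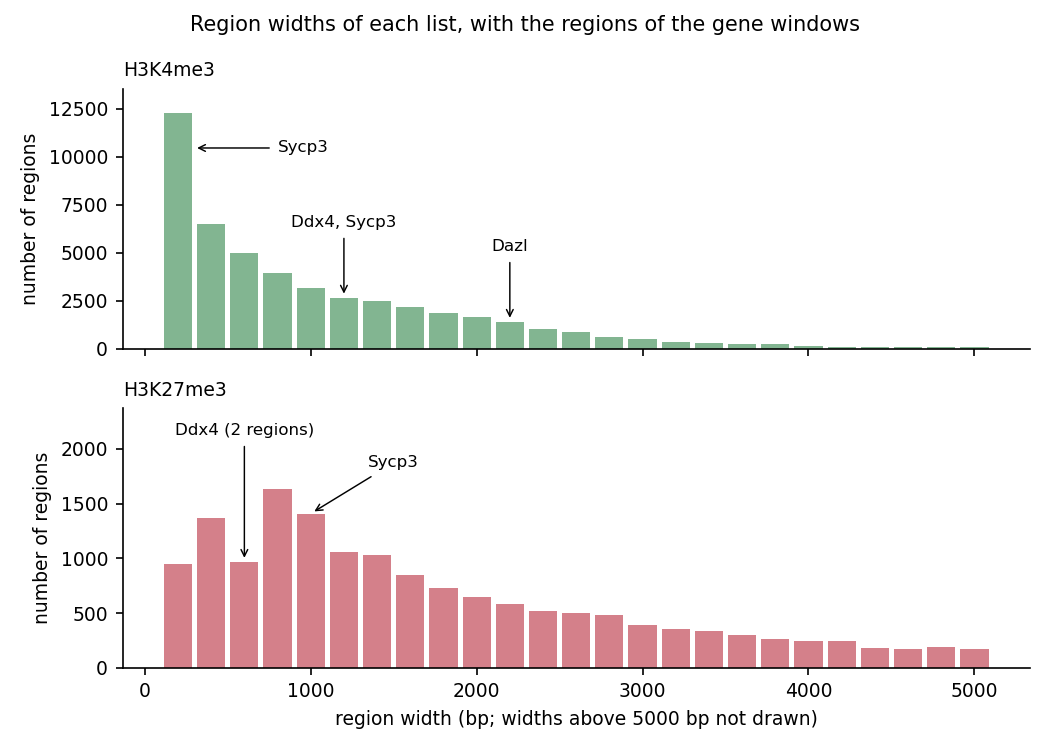
Number of regions (vertical axes) by width in bp (horizontal axis, to 5000 bp) in the H3K4me3 list (top) and the H3K27me3 list (bottom), with arrows at the widths of the 7 regions. The Dazl region of 2200 bp lies toward the wide end of the H3K4me3 list, and the H3K27me3 regions of Ddx4 (600 bp) and Sycp3 (1000 bp) lie below the H3K27me3 median of 1800 bp.

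The H3K27me3 regions of Ddx4 and Sycp3, as called, were narrow for their list. Its median was 1800 bp (quartiles 800 and 3600 bp), and 82.4% of its regions were wider than the 600 bp of Ddx4 and 66.2% wider than the 1000 bp of Sycp3. Among the 7027 H3K27me3 regions that overlapped H3K4me3 the median was 2600 bp (quartiles 1000 and 5800 bp), with 13.1% narrower than the Ddx4 region and 23.1% narrower than that of Sycp3. Of H3K27me3 regions of all widths, 37.5% overlapped H3K4me3. The share was 39.5% (95% Wilson interval 36.5 to 42.7%, 382 of 966) at exactly 600 bp and 20.1% (18.1 to 22.3%, 283 of 1408) at exactly 1000 bp. The H3K4me3 partners, of 1200 bp, were of ordinary width: the median H3K4me3 region that overlapped H3K27me3 was 1000 bp wide (quartiles 400 and 1600 bp). Of H3K4me3 regions of exactly 1200 bp, 27.2% (25.5 to 28.9%, 719 of 2643) overlapped H3K27me3, against 18.8% of all H3K4me3 regions. These intervals, like the others given here, cover the counting of regions only. They treat regions or pairs as independent, which neighbouring ones need not be.

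The nesting of the marks at Ddx4 and Sycp3 was the less common one, which in part restates the narrow widths given above. As called, both H3K27me3 regions were narrower than the H3K4me3 region they overlapped, so the reverse nesting could not occur there. The pairs counted next were not matched for width. In both genes an H3K27me3 region lay inside an H3K4me3 region, an arrangement found in 933 of 9132 overlapping pairs (10.2%, 95% Wilson interval 9.61 to 10.9%). The reverse, H3K4me3 inside H3K27me3, made up 68.3% of pairs. H3K27me3 left part of the H3K4me3 region uncovered in both genes, whereas 77.4% of the 9007 H3K4me3 regions with any overlap were covered from end to end. As called, coverage was lower than the 50.0% of Ddx4 in 9.75% of them and lower than the 83.3% of Sycp3 in 20.8%. Both coverages are the highest that the widths of these H3K27me3 regions allowed, so full coverage was not possible. These ranks are therefore not a result apart from the widths. Of the 933 nested pairs, 634 (68.0%) shared 1 end, as Sycp3 does, and 299 (32.0%) shared none, as Ddx4 does. The Ddx4 arrangement with a further H3K27me3 region directly abutting was rarer: it was found at 24 of 918 H3K4me3 regions that held an H3K27me3 region (2.61%, 1.76 to 3.86%). This layout was defined from Ddx4 itself, so its low share does not measure how unusual Ddx4 is. The nesting at Ddx4 depends on the pieces being counted apart: joined, its H3K27me3 region ran 600 bp past the right end of the H3K4me3 region and was no longer inside it, while that of Sycp3 still was. The nesting at Sycp3 rests on 1 step of 200 bp at the right end, the smallest difference the lists can hold. Nested pairs were 11.2% of 8241 pairs in the joined lists. These shares describe the lists, and the arrangement at 2 genes does not show what is typical of germline genes.

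**Figure D3:**
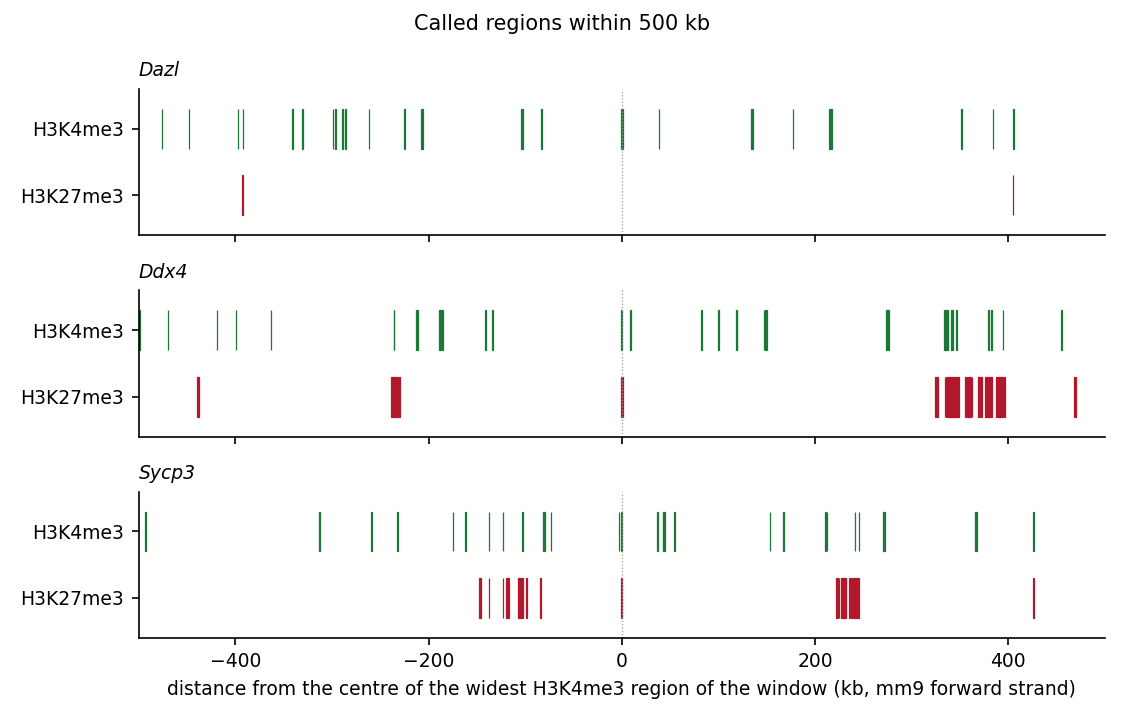
Regions within 500 kb of the same centres, with distance in kb on the horizontal axis, H3K4me3 in green and H3K27me3 in red, outlined so that narrow regions stay visible and look wider than they are. Outside the pair of Ddx4 pieces and the Sycp3 region, the next H3K27me3 regions lie at 229 and 83.2 kb, and Dazl has none within 391 kb.

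None of the 3 windows held a wide H3K27me3 region, and the H3K27me3 of Ddx4 and Sycp3 stood apart from other regions of the mark. At Ddx4 the next H3K27me3 outside the pair of pieces was 229 kb to the left and 323 kb to the right. At Sycp3 the nearest H3K27me3 was 83.2 kb to the left and 222 kb to the right. With H3K27me3 regions less than 1 kb apart joined, which makes the Ddx4 pieces 1 region, the median gap between an H3K4me3-overlapping region and its nearest H3K27me3 neighbour was 10.2 kb (quartiles 2.6 and 67.8 kb, 6703 regions). Ddx4 exceeded 89.1% of these gaps and Sycp3 77.5%. As called, Sycp3 exceeded 80.3% of 7027 gaps (median 5.8 kb). The overlapping Ddx4 region, as called, lay 0.4 kb from its second piece, and 2.52% of the 7027 gaps were smaller. Within 500 kb on each side, the wider surroundings were not free of the mark at Ddx4 and Sycp3, with 17 and 15 further H3K27me3 regions outside their windows, but held 2 at Dazl. H3K4me3 was more even, with 22, 27 and 24 further regions around Dazl, Ddx4 and Sycp3. Covered H3K27me3 length in these surroundings, windows included, was 1.2 kb around Dazl, 52.8 kb around Ddx4 and 31.8 kb around Sycp3, and H3K4me3 covered 18.4, 29.4 and 20.0 kb.

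As background, every window of the same length laid end to end over the autosomes and X was put in a class in the same way. Of 65930 windows of 40 kb, 61.3% held neither mark, 23.8% H3K4me3 alone, 3.60% H3K27me3 alone and 11.3% both. The marks overlapped in 8.91%, the class of Sycp3. Of 37670 windows of 70 kb, the length used for Ddx4, 51.0% held neither, 28.1% H3K4me3 alone, 3.21% H3K27me3 alone and 17.7% both, with overlap in 13.9%. Many such windows hold no gene start, so a closer background is the windows with H3K4me3, as all 3 genes have: the marks overlapped in 25.4% of these at 40 kb and 30.3% at 70 kb. Set beside these shares, 2 of 3 genes had overlapping marks. With 3 genes this count is a description only.

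**Figure D4:**
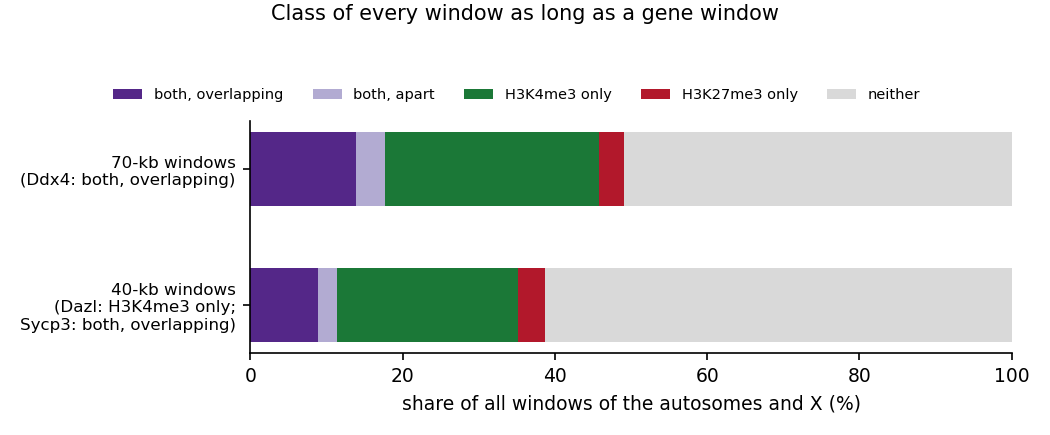
Share (horizontal axis, %) of all windows of the autosomes and X in each class, for windows of 70 kb (top bar) and 40 kb (bottom bar), with the class of each gene named at the left. H3K4me3 alone, the class of Dazl, takes 23.8% of 40-kb windows, and overlapping marks, the class of Sycp3 and Ddx4, take 8.91% of 40-kb and 13.9% of 70-kb windows.

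The promoter sequences were compared for CpG content, which neither the windows nor the lists used. CpG observed over expected, the number of CpGs divided by the number that the C and G content would give, was computed over the 250 bases before and 50 after the start. It was 0.978 for Ddx4, 0.795 for Dazl and 0.666 for Sycp3, against a median of 0.384 (quartiles 0.176 and 0.75) over 32841 RefSeq promoters. The 300 bases held 38 CpGs in Ddx4, 28 in Dazl and 15 in Sycp3, with a median of 7 over all promoters. All 3 were thus above the median promoter, with 92.8% of promoters lower than Ddx4, 78.6% lower than Dazl and 68.5% lower than Sycp3. The order of CpG content did not follow the class: the gene without H3K27me3, Dazl, lay between the genes with it. The sequences are those of the annotated promoters, and whether the called regions lie on them was not examined.

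Promoters were then searched on both strands for 4 short motifs, chosen with the sequences in view. CACGTG is the E-box bound by MAX and its partners, including MGA, and GCGGGA is a core of E2F sites. MGA, MAX and E2F6 are known as parts of a variant Polycomb complex that represses germline genes in other cells. That complex is of the PRC1 type and is not PRC2, which lays down H3K27me3. CCAAT, bound by NF-Y, and GGGCGG, bound by SP factors, are common promoter elements. CACGTG reads the same on both strands. Sycp3 held it at 2 places, beginning 64 and 43 bases before the start, Ddx4 held it at 1, beginning 29 bases before, and Dazl had 0 matches. The share of all promoters with CACGTG was 7.15%, and it was 11.5% among the 10361 promoters with at least the CpG observed over expected of Sycp3. GCGGGA was present once in Sycp3 (147 bases before the start) and once in Ddx4 (136 bases before) and had 0 matches in Dazl, against 20.0% of all promoters and 44.6% of the CpG-rich ones. CCAAT was present in all 3 genes, with matches beginning 47 bases before the start in Dazl, 109 and 63 before in Ddx4 and 12 bases after the start in Sycp3. It was found in 37.4% of all promoters and 35.3% of the CpG-rich ones. GGGCGG had 2 matches in Ddx4 (138 and 36 bases before the start, the first overlapping the GCGGGA match), 1 in Sycp3 (93 before) and 0 in Dazl, against 35.7% of all promoters and 74.1% of the CpG-rich ones. Ddx4 and Sycp3 thus held the E-box, the E2F core and the SP motif, and Dazl held none of these 3. CCAAT did not separate the genes. Because the motifs were chosen with these sequences in view, this split was not a test. In 3 genes it is a description and says nothing of whether a factor was bound.

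**Figure D5:**
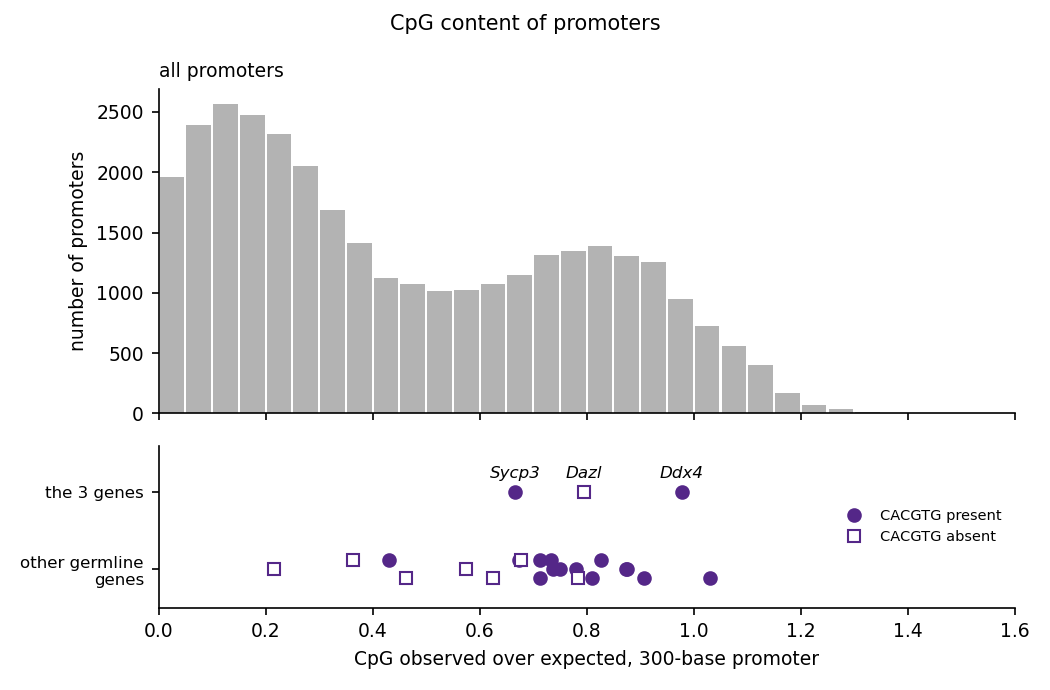
Top, number of RefSeq promoters by CpG observed over expected. Bottom, the same value for the 3 genes and for 21 promoters of 16 other genes taken as germline genes, with filled circles where CACGTG is present and open squares where it is absent. Dazl, at 0.795, is the 1 of the 3 genes without the motif, and 19 of the 21 other promoters lie above the median of 0.384.

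The same features were counted in 17 other genes taken as germline genes, picked by hand from general knowledge and not by a rule: Sycp1, Sycp2, Syce1, Mael, Hormad1, Tex19.1, Tdrd1, Tdrd9, Stk31, Piwil2, Mov10l1, Asz1, Brdt, Slc25a31, Dpep3, Taf9b and Taf7l. Whether each is restricted to the germ line was not examined. Sycp1, Sycp2, Syce1 and Hormad1 act on meiotic chromosomes, and Mael, Tdrd1, Tdrd9, Piwil2, Mov10l1 and Asz1 in the silencing of transposons by small RNAs. Of the 17, 16 had RefSeq promoters, 21 in all, and promoters of 1 gene can share bases. CpG observed over expected was above the median of all promoters in 19 of 21, with a median of 0.733. The highest was Taf7l at 1.03 and the lowest a promoter of Tdrd1 at 0.216. CACGTG was present in 14 of the 21 (66.7%), in 11 of the 16 genes, beside 7.15% of all promoters and 11.5% of the CpG-rich ones. GCGGGA was present in 7 (33.3%), in 6 genes, which lies between the 20.0% of all promoters and the 44.6% of the CpG-rich ones. A list picked by hand, searched for motifs chosen with the sequences in view, is no reference for the 3 genes. Whether the picking favoured genes known for these motifs was not examined. Nothing about the 3 genes, or about germline promoters in general, is drawn from the list. No mm9 position of these genes was used here, so their histone marks were not examined.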

How the data were processed

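The authors deposited 1 BED list per mark, each with 4 columns (chromosome, start, end, region name). The file names call them contiguous ChromHMM regions. ChromHMM gives bins of the genome states with a hidden Markov model. Some 200-bp steps were in both lists (3 in the Ddx4 window and 5 in the Sycp3 window). How states became 1 list per mark, and whether the marks were called separately, is therefore unknown. Reads were handled with Bowtie 0.12.7 on build mm9, per the submitters' processing notes. Not given in the sources used here are the ChromHMM settings, whether the input was used and how 2 replicates became 1 list. The lists hold no count or score, so a weak mark under the caller's threshold cannot be seen. Per the labels' protocols, libraries had 20 amplification cycles (input 15), and the input was not analysed here.

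Windows were read from the stated rule, regions were taken at an overlap of at least 1 bp, and coordinates are printed counting from 1. The regions named are all those in the windows and the nearest outside. The genes, windows and lists were chosen with earlier results of these data known. Promoter sequences of 300 bases, 32841 of 32851 in the RefSeq table (those of full length without unknown bases), gave CpG content and motifs. All 3 genes and 16 of 17 others matched by symbol. Overlap code was tested on simulated data. Python 3.11.15, numpy 2.4.6, scipy 1.17.1 and matplotlib 3.10.9 were used.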

Additional observations from a re-analysis of the deposited data

How the results depend on the processing

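The 20 results had 65 values under alternatives, of which 63 stayed within 1.5 times the reported value and 2 moved. The results are counts, lengths, shares and ratios without a sign, so a change of direction could not occur. Part of the 63 could not move, so the count overstates how far the results were tried. Every region already lay wholly inside its window, and the overlaps at Ddx4 and Sycp3 already met both overlap minimums. The H3K27me3 length and the overlap at Dazl were 0 in every setting. The classes were the same under all alternatives run for them: 1 window with H3K4me3 alone and 2 with both marks, with windows extended by 10 kb, regions of 400 bp or less left out, only regions wholly inside, or regions less than 1 kb apart joined. Extending the windows took the H3K4me3 length at Ddx4 from 1200 to 2400 bp, by adding the region just past the edge, so that Ddx4 then had more than Dazl (2200 bp) and Sycp3 (1800 bp) instead of the least. Leaving out regions of 400 bp or less made Ddx4 and Sycp3 equal at 1200 bp. Joining regions took the overlap at Ddx4 from 600 to 1000 bp and ended the nesting of its H3K27me3 inside H3K4me3, since the gap between the H3K27me3 pieces then counts as marked. Settings for the overlap other than its minimum (400 bp, or 50% of the shorter region) were chosen after seeing the data. No paired analysis was possible because each mark has 1 list, and for the same reason no replicate could be left out. The lists give no depth, so how weak a mark could be and still be listed is unknown.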
